A study of Rattus norvegicus with 52 samples.

Results

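The quaternary ammonium compounds DDAC and ADEB18 were compared in rat lung at a dose value of 0.25, which is the highest for DDAC and the middle one for ADEB18. The comparison held 4 DDAC libraries and 4 ADEB18 libraries, 8 of the 52 libraries in the series, and took in every gene. No Control library entered it. Quaternary ammonium compounds are cationic surfactants used in disinfectants and preservatives. The labels do not spell out DDAC, which usually stands for didecyldimethylammonium chloride, a compound with paired decyl chains. ADEB18 is a code name whose structure the sources used here do not give, so no structural difference between the compounds is named. The labels give no unit for the doses, so 0.25 is taken as the same value for both compounds and nothing more.

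All rats were Sprague Dawley animals labelled as wild type. The DDAC rats received DDAC once into the trachea at 0.25. The ADEB18 rats received ADEB18 at 0.25 by the same route. A Control group of 4 rats received DW, a vehicle the labels do not spell out, and is shown here only for the level of a gene. DDAC was also given at 0.0625 and 0.125, and ADEB18 at 0.125 and 0.5, so that 0.125 is a second dose value shared by both compounds. The sources used here give neither age nor sex, nor the time between dosing and sampling. Each library is one sample of whole lung tissue, made from 500 ng of total RNA with a kit that reads the 3' end of messenger RNAs. In whole tissue, fewer cells of a type and less RNA per cell cannot be told apart.

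The lung holds alveolar type 1 and type 2 epithelial cells, airway cells, capillaries, fibroblasts and macrophages. Surfactant-like cations meet the airway lining and the alveolar surface first. Glucocorticoid-responsive genes such as Zbtb16 and clock genes such as Per2 are expressed in many of these cells and follow the hormone and the time of day. TGF-beta signalling in fibroblasts and epithelium raises early response genes such as Klf10 and matrix genes such as Postn.

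Libraries held between 8799258 and 11937634 counts in the 8 libraries of the comparison. A level is given in CPM, a gene's counts scaled to the TMM-adjusted size of its library. A log2 fold change is DDAC over ADEB18 and stands with its SE from edgeR's quasi-likelihood fit over all 52 libraries. A gene was called when its p, adjusted by Benjamini and Hochberg over the 17796 genes tested, was under 0.05. The sources used here do not say whether rats shared a cage, batch or day, so p-values measure the spread between samples. That spread was taken over all 13 groups of the fit and not only the 2 compared. With the 2 groups alone in the fit, 96 genes were called at 0.25 in place of 233, 84 higher with DDAC and 12 lower. The lung markers fitted the label of the tissue: the 12 alveolar type 2 markers summed to between 20058 and 25738 CPM in the DDAC libraries and between 18397 and 21184 CPM in the ADEB18 libraries.

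Between the compounds, 233 genes were called, 1.31% of those tested. Of these, 166 were higher with DDAC (0.933% of genes tested) and 67 were lower (0.376%). At least 2-fold changes were seen in 88 of the higher and 10 of the lower genes. The 2 groups did not overlap for 211 of the 233 called genes, beside 8.65% of all genes tested (5.24% with DDAC higher and 3.41% with DDAC lower). The median log2 fold change was 1.01 over the genes called higher, -0.54 over those called lower and -0.02 over all genes. With upper-quartile normalization the split was 137 higher and 89 lower, and with DESeq2's test 365 higher and 179 lower. Without ADEB18 replicate 2 the split turned round, with 19 higher and 35 lower.

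The number of calls rested on single libraries. It was 41 without DDAC replicate 1, 25 without DDAC replicate 2, 75 without DDAC replicate 3 and 253 without DDAC replicate 4. It was 36 without ADEB18 replicate 1, 54 without ADEB18 replicate 2, 4 without ADEB18 replicate 3 and 582 without ADEB18 replicate 4. Calls that held in each of the 8 fits with one library left out were Zbtb16, Id1, Ostf1 and Postn, all higher with DDAC.

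**Figure D1:**
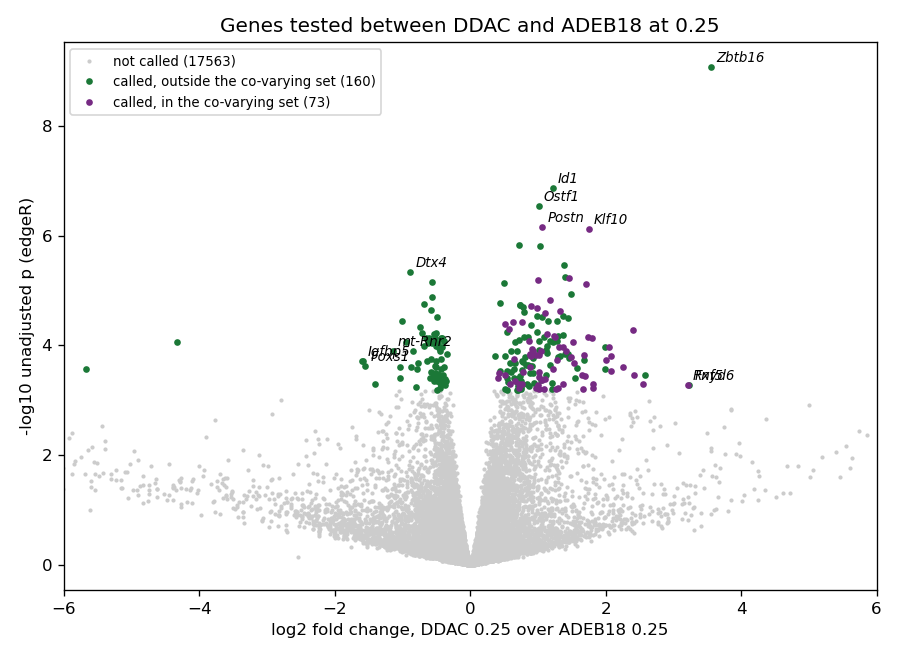
Log2 fold change of DDAC 0.25 over ADEB18 0.25 (x axis) against -log10 of the unadjusted p from edgeR (y axis), 1 point per gene, with genes not called in grey, called genes of the co-varying group in purple, other called genes in green, and 15 genes beyond the x axis not drawn. Called genes lie mostly on the right, 166 higher against 67 lower, and Zbtb16 has the smallest p.

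Zbtb16, a zinc finger transcription factor gene known as a glucocorticoid target, had the smallest p and the largest increase. It had 326, 421, 237 and 380 CPM in the 4 DDAC libraries, against 24.6, 25.9, 34.7 and 30.6 CPM in the 4 ADEB18 libraries. Every DDAC library lay far above every ADEB18 library. The log2 fold change was 3.56 ± 0.46, with a 95% interval of 2.62 to 4.49 and adjusted p = 1.55e-05 in edgeR. The Control libraries spread widely, at 94.9, 168, 75.1 and 388 CPM, so the DDAC libraries lay partly within the Control range and the ADEB18 libraries below it.

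Across doses, the mean of Zbtb16 was higher at each step with DDAC and not with ADEB18, a description of the means with no test. With DDAC it had a mean of 39.7 CPM at 0.0625, 84.0 CPM at 0.125 and 341 CPM at 0.25. The 4 libraries at 0.125 split into 140 and 134 CPM and 41.1 and 21.1 CPM. With ADEB18 it had a mean of 46 CPM at 0.125, 29 CPM at 0.25 and 34.2 CPM at 0.5. The DDAC mean at 0.0625 and the ADEB18 mean at each dose were below the lowest Control library. So were the DDAC libraries at 41.1 and 21.1 CPM. Of the groups of both compounds, every library of the DDAC group at 0.25 exceeded the highest library of the others, 140 CPM. At 0.125 the Zbtb16 difference between compounds was 0.87 ± 0.43 (adjusted p = 0.319), and the change of the difference between the doses was 2.69 ± 0.61 (adjusted p = 0.174 in edgeR).

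**Figure D2:**
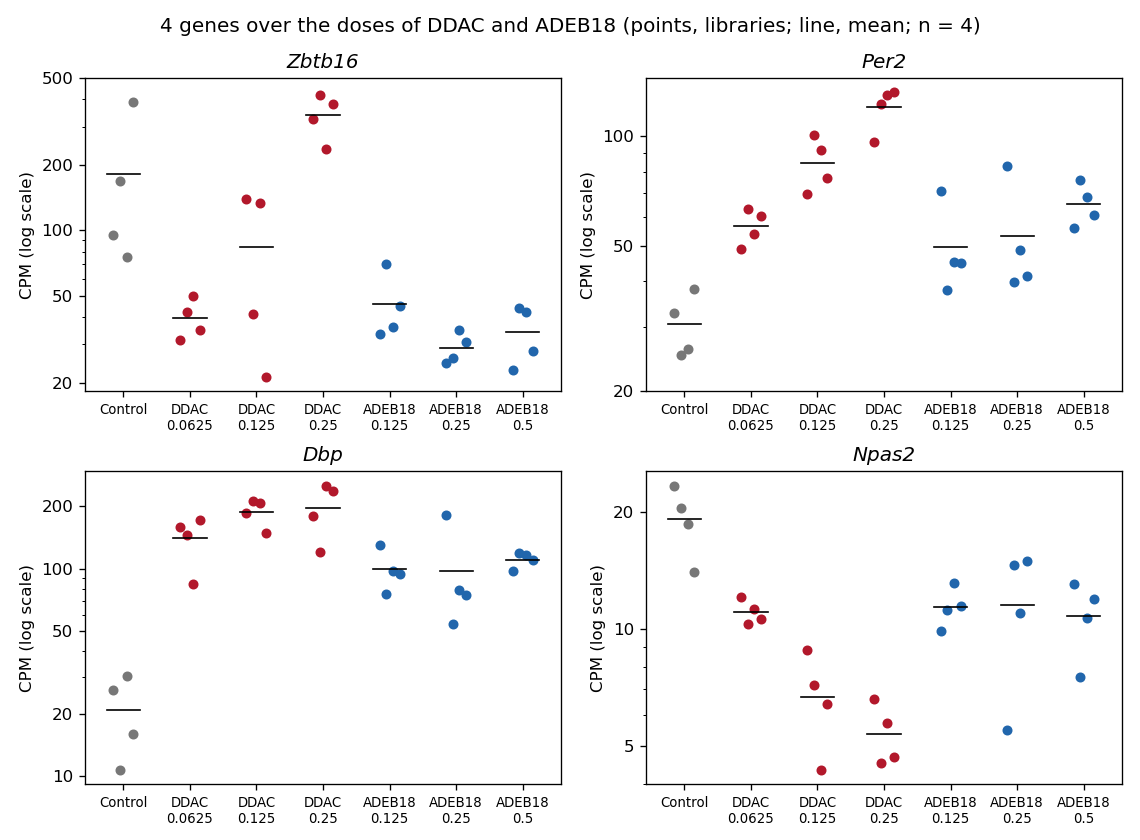
Levels in CPM (log y axis) of Zbtb16, Per2, Dbp and Npas2 in single libraries of Control, DDAC at 3 doses and ADEB18 at 3 doses (x axis), with the group mean as a line. For Zbtb16 the 4 DDAC libraries at 0.25 stand between 237 and 421 CPM, and the ADEB18 libraries at 0.25 between 24.6 and 34.7 CPM.

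Id1, Ostf1 and Postn also held their call in every fit with a library left out, and were picked for their small p after the values were seen. Id1, an inhibitor of DNA binding proteins and an early target of BMP signalling, had 476, 441, 379 and 444 CPM in DDAC libraries, against 175, 160, 125.4 and 287 CPM in ADEB18 libraries. The groups were apart, and the log2 fold change was 1.22 ± 0.20 (adjusted p = 0.00119 in edgeR). Ostf1, which codes for a signalling adaptor first described in osteoclasts, had 95.2, 104, 108 and 82.1 CPM in DDAC libraries. In ADEB18 libraries it had 47.8, 44.3, 43.5 and 57.1 CPM, all below the DDAC ones, with a log2 fold change of 1.01 ± 0.17 (adjusted p = 0.00170). Postn, which codes for the matrix protein periostin, had 427, 436, 395 and 433 CPM in DDAC libraries and 193, 169, 177 and 269 CPM in ADEB18 libraries. Its groups were apart too, with a log2 fold change of 1.07 ± 0.19 (adjusted p = 0.00270).

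Further genes of signalling were called, and were picked after their values were seen, so they stand as single genes. In the list of 16 matrix and TGF-beta genes, 1 was called and the median log2 fold change was 0.10. Klf10, a transcription factor gene induced early by TGF-beta, had 101, 93.7, 77 and 83.6 CPM in DDAC libraries, against 29.2, 14.6, 18.7 and 42.7 CPM in ADEB18 libraries. The log2 fold change was 1.75 ± 0.31 (adjusted p = 0.00270), and the call was lost without ADEB18 replicate 3. Tgfbr2, a TGF-beta receptor gene, averaged 394 ± 29.9 CPM with DDAC and 196 ± 38.4 CPM with ADEB18 (SD, n = 4 each; log2 fold change 1.01 ± 0.20). Rgcc, a cell cycle regulator gene, averaged 91.7 ± 10.2 CPM with DDAC and 35.2 ± 15.9 CPM with ADEB18. Spry1 and Spred2, which code for inhibitors of growth factor signalling to the Ras pathway, had log2 fold changes of 1.33 ± 0.32 and 1.74 ± 0.40. Tnfaip3, an inhibitor of NF-kappaB signalling, had 11.6, 18.8, 14.3 and 16.2 CPM in DDAC libraries, against 5.66, 4.05, 3.37 and 8.47 CPM in ADEB18 libraries, and its log2 fold change was 1.49 ± 0.30. Il6r and S1pr1, receptor genes for interleukin and sphingolipid signals, had log2 fold changes of 1.51 ± 0.35 and 1.12 ± 0.27. Of the 8 fits with a library left out, Tgfbr2 and Rgcc kept their calls in 7, Tnfaip3 in 6, Spry1, Spred2 and S1pr1 in 3 and Il6r in 2, and none of the 7 genes kept it without ADEB18 replicate 3. With the 2 groups alone Il6r and S1pr1 were not called (adjusted p = 0.0904 and 0.0642 in edgeR).

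**Figure D3:**
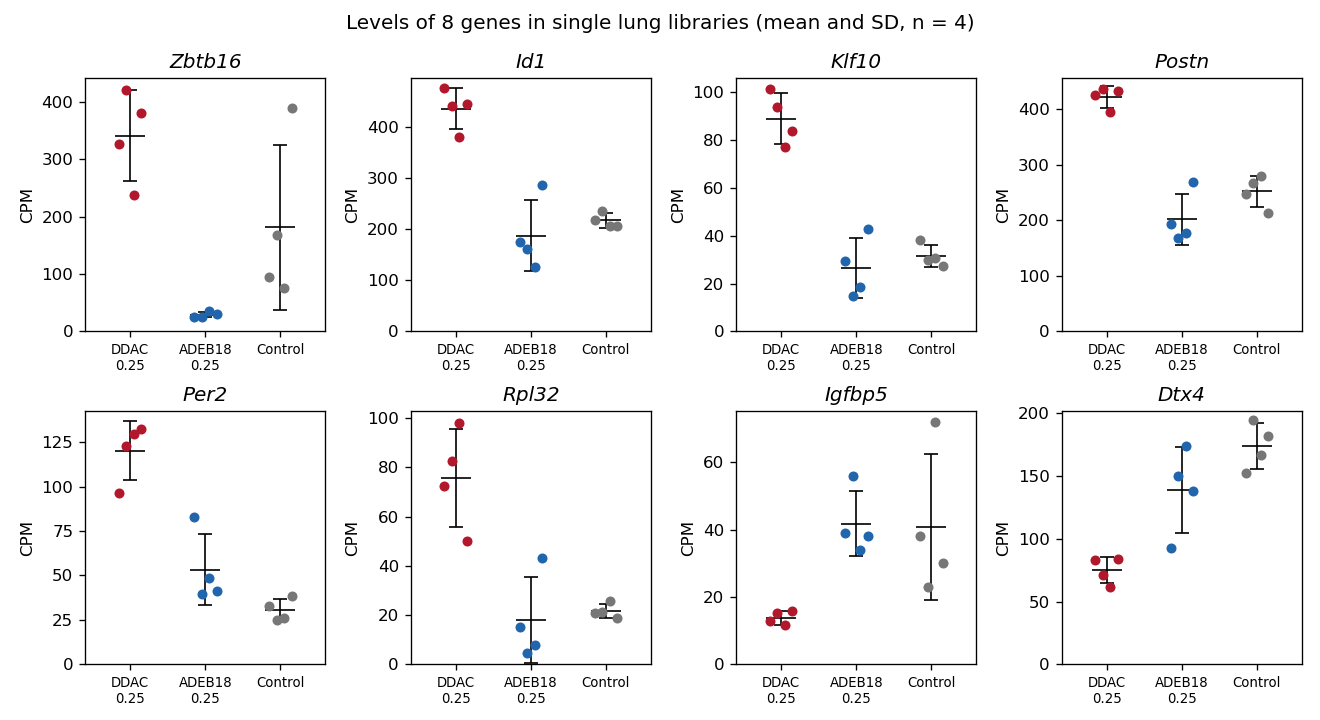
Levels in CPM of 8 genes in single libraries of DDAC 0.25, ADEB18 0.25 and Control (x axis), with the mean as a bar and the SD as a whisker (n = 4). In the first 6 panels every DDAC library lies above every ADEB18 library, and for Igfbp5 and Dtx4 every DDAC library lies below.

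By size, 12 genes higher with DDAC were taken: Zbtb16, Fxyd6, Rnf5, Rpa3, Ppp4c, Nup98, Rpl35a, Pvr, Rpl32, Atn1, Etfa and Stxbp3. Of these, only Zbtb16 kept its call in all 8 fits with a library left out, and the other 11 kept theirs in 2 or 3. With the 2 groups alone in the fit, Ppp4c, Rpl32 and Etfa were not called (adjusted p 0.0619 to 0.0652 in edgeR). Fxyd6, whose product regulates the sodium pump, had 23.6, 22.8, 7.30 and 3.94 CPM in DDAC libraries, against 2.23, 0.747, 1.21 and 1.86 CPM in ADEB18 libraries. The log2 fold change was 3.23 ± 0.87 (adjusted p = 0.0436). Rnf5, a ubiquitin ligase of the endoplasmic reticulum membrane, had 41.4, 79.0, 49.7 and 21 CPM in DDAC libraries. In ADEB18 libraries it had 2.14, 1.17, 3.11 and 13.9 CPM, and ADEB18 replicate 4 was the closest to the DDAC libraries. Its log2 fold change was 3.22 ± 0.86 (adjusted p = 0.0436).

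The other 9 had log2 fold changes of 1.99 to 2.59 (adjusted p 0.0204 to 0.0434) and cover many cell functions. Rpa3 (2.59 ± 0.67) codes for a subunit of the single-strand DNA binding protein RPA, and Nup98 (2.42 ± 0.62) for a nuclear pore protein. Ppp4c (2.55 ± 0.68) codes for a protein phosphatase catalytic subunit. Pvr (2.26 ± 0.57) codes for a nectin-like adhesion receptor and Atn1 (2.07 ± 0.53) for a transcriptional corepressor. Etfa (2.01 ± 0.49) codes for an electron carrier of fatty acid oxidation and Stxbp3 (1.99 ± 0.47) for a vesicle fusion protein. Rpl35a (2.41 ± 0.54) and Rpl32 (2.08 ± 0.50) code for proteins of the large ribosomal subunit, and both have near-identical copies elsewhere in the genome, so their counts are uncertain. In ADEB18 libraries Rpl32 had 15.3, 4.8, 8.05 and 43.2 CPM, the last being ADEB18 replicate 4. In DDAC libraries it had 72.3, 82.4, 97.8 and 50.03 CPM.

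The genes called lower with DDAC had smaller changes. By size these 12 were Igfbp5, Foxs1, mt-Rnr2, Vps72, Dtx4, Cstf3, Rbm22, Prrc2c, Cep131, Zbed6, Iqgap1 and Atg14. Igfbp5, which codes for an insulin-like growth factor binding protein, had 12.7, 15.3, 11.6 and 15.9 CPM in DDAC libraries, against 39, 55.8, 33.9 and 38.1 CPM in ADEB18 libraries. The groups were well apart, with a log2 fold change of -1.59 ± 0.39 (adjusted p = 0.0266). Foxs1, a forkhead transcription factor gene, had 2.29, 3.21, 1.57 and 3.94 CPM in DDAC libraries, against 6.17, 10.6, 8.57 and 7.11 CPM in ADEB18 libraries (log2 fold change -1.55 ± 0.39, adjusted p = 0.0303). Dtx4, a ubiquitin ligase gene linked to Notch signalling, had the smallest adjusted p of the 12 (0.00889). It had 83.4, 71.3, 61.9 and 83.6 CPM in DDAC libraries and 92.4, 150, 174 and 138 CPM in ADEB18 libraries (log2 fold change -0.88 ± 0.17). Dtx4 kept its call in 7 of the 8 fits with a library left out, losing it without ADEB18 replicate 3, and the other 11 kept theirs in 1 to 4. With the 2 groups alone in the fit, only Igfbp5, Dtx4 and Zbed6 of the 12 were called, and the rest had adjusted p of 0.0536 to 0.0659 in edgeR. Of the 24 genes named by size in both directions, 12 were called in that fit.

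mt-Rnr2, the large ribosomal RNA of the mitochondrion, had 6310, 7668, 5758 and 6828 CPM in DDAC libraries. In ADEB18 libraries it had 23696, 8440, 13679 and 12749 CPM, all above the DDAC ones, with a log2 fold change of -1.14 ± 0.27 (adjusted p = 0.0233). Its highest ADEB18 libraries, replicates 1 and 3, were also those with the most heart muscle transcripts. ADEB18 replicate 4 was close to replicate 3 in mt-Rnr2, at 12749 against 13679 CPM. Its cardiac muscle genes summed to 195 CPM, against 1577 CPM in replicate 3. With the heart muscle score as a covariate the mt-Rnr2 value was -0.95 (adjusted p = 0.0352).

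The remaining genes of the 12 act in RNA processing, chromatin and cell structure. Cstf3 (-0.84 ± 0.20) codes for a factor that cleaves messenger RNA ends, and Rbm22 (-0.80 ± 0.22) for a splicing factor. Vps72 (-0.94 ± 0.22) codes for a histone exchange factor and Zbed6 (-0.74 ± 0.17) for a transcriptional repressor. Cep131 (-0.76 ± 0.19) is a centrosome gene, Iqgap1 (-0.71 ± 0.16) codes for a cytoskeletal scaffold, Atg14 (-0.69 ± 0.16) for an autophagy factor and Prrc2c (-0.79 ± 0.20) for an RNA binding protein. Larger fitted decreases than some of the 12 were called in Itgb3 and Trnae-cuc_1, which averaged under 5 CPM in both groups and are given no fold. Mrtfb (-1.59), Palm2 (-1.04), Gnl3l (-1.002) and Arhgap21 (-0.88) were also called lower, but their groups overlapped.

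Lists of pathway and cell type genes gave few calls. Of 508 list genes tested, 8 were called, all higher with DDAC, beside 0.933% of all genes called higher, and 0 list genes were called lower. DESeq2's test called 16 list genes higher and 4 lower, beside 365 higher and 179 lower among all 17796 genes in its fit. The median log2 fold change of the list genes was -0.000954, beside -0.02 over all genes. The 8 called genes sat in 8 of the 42 lists with a tested member. They were Zbtb16 and Zfp36 of the glucocorticoid list, Per2 of the clock list, Postn of the matrix and type 2 response lists, Hopx of the alveolar type 1 list, Ctsl of the lysosome list, Herpud1 of the unfolded protein list and Eif2s3y of the sex-linked list.

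Of 13 glucocorticoid-responsive genes tested, 2 were higher and 0 lower, and the median log2 fold change of the 13 was 0.41. Of the 13, 10 had a log2 fold change above 0, and the values ran from -0.67 to 3.56. Zfp36, which codes for a protein that destabilises inflammatory messenger RNAs, had 86.5, 87.1, 45.4 and 62.8 CPM in DDAC libraries, against 15.0, 33.2, 9.78 and 36.7 CPM in ADEB18 libraries (log2 fold change 1.58 ± 0.40, adjusted p = 0.0310). Tsc22d3, the leucine zipper gene GILZ, averaged 177 ± 18.2 CPM with DDAC and 116 ± 26.4 CPM with ADEB18, with a log2 fold change of 0.61 ± 0.19 that missed the threshold (adjusted p = 0.0933). Fkbp5, a cochaperone of the glucocorticoid receptor, had 0.59 ± 0.23 (adjusted p = 0.187). Klf15, a glucocorticoid-induced and clock-controlled transcription factor gene outside both lists and picked after its values were seen, had 45, 33.8, 33.7 and 29.1 CPM in DDAC libraries. In ADEB18 libraries it had 16.3, 5.76, 5.88 and 23.3 CPM (log2 fold change 1.46 ± 0.36, adjusted p = 0.0257). Its groups were apart, and its call held in 2 of the 8 fits with a library left out and not with the 2 groups alone (adjusted p = 0.0779).

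The clock list held 18 tested genes, of which 1 was higher and 0 lower, with a median log2 fold change of 0.45. Per2, a repressor of the clock loop, had 96.3, 123, 129 and 132 CPM in DDAC libraries, against 82.6, 39.8, 48.8 and 41.5 CPM in ADEB18 libraries. All DDAC libraries were above all ADEB18 libraries, with a log2 fold change of 1.17 ± 0.27 (adjusted p = 0.0209), and its call held in 4 of the 8 fits with a library left out. Npas2 and Bmal1, which code for activators of the loop, were lower in mean with DDAC without passing the edgeR test. Npas2 had 6.59, 4.51, 5.73 and 4.68 CPM in DDAC libraries, against 5.49, 14.6, 11 and 15 CPM in ADEB18 libraries (log2 fold change -1.09 ± 0.32, adjusted p = 0.0666). Bmal1 had -1.05 ± 0.34 (adjusted p = 0.0991). DESeq2's test called both lower, with adjusted p = 0.0268 for Npas2 and 0.0465 for Bmal1. Dbp, an output gene driven by the loop, had 179, 120, 251 and 236 CPM in DDAC libraries and 180, 54.1, 78.5 and 74.7 CPM in ADEB18 libraries, where replicate 1 of each group was similar.

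Control levels of Per2 and Dbp were low. Per2 in Control had 32.9, 25.1, 26.1 and 38.3 CPM, below every DDAC and every ADEB18 library, and Dbp in Control had 25.9, 10.7, 30.5 and 16 CPM. Against Control, Per2 had log2 fold changes of 1.97 with DDAC (adjusted p = 2.37e-05) and 0.80 with ADEB18 (adjusted p = 0.580). The 2 comparisons share the Control libraries. The time of day of sampling is not given in the sources used here.

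The promoters of Per2 and Klf15 were chosen because they hold a match to a clock motif, and that of Dbp held none. They are shown as the 250 bases before the gene start in RefSeq's GRCr8 assembly, with matches to clock motifs in capitals. For Per2, on the minus strand at chr9:99496994-99497243, the capitals are the D-box TTATGTAA, 192 bases before the start, and the E-box variant CACGTT, 62 bases before the start. For Klf15, on the plus strand at chr4:124522765-124523014, the capitals are the E-box CACGTG, 101 bases before the start.
Per2: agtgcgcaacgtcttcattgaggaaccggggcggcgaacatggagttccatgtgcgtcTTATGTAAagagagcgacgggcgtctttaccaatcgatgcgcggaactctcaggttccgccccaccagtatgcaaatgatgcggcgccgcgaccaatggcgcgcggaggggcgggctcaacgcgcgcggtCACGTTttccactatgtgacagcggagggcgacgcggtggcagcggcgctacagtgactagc
Klf15: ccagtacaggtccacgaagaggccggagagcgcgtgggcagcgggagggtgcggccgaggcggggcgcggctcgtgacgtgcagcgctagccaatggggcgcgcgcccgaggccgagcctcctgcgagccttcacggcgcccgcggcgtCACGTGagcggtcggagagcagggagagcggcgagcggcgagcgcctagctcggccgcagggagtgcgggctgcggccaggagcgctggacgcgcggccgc
Both strands were searched. CACGTG stood in 5.79% of 27457 promoters of that length, CACGTT in 4.14%, TTATGTAA in 0.816% and the palindromic glucocorticoid element in 0.0401%. Of 15 clock list promoters matched, 4 held CACGTG, 3 held CACGTT, 1 held TTATGTAA and 0 held the glucocorticoid element. Of 13 glucocorticoid list promoters, 2 held CACGTG, 1 held CACGTT, 0 held TTATGTAA and 0 held the glucocorticoid element.

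The other called list genes were single members. Hopx, a marker of alveolar type 1 cells, had 422, 458, 363 and 302 CPM in DDAC libraries, against 206, 138, 122 and 251 CPM in ADEB18 libraries (log2 fold change 1.11 ± 0.29, adjusted p = 0.0395), and 1 of 11 tested type 1 markers was called. Ctsl, a lysosomal protease gene, averaged 191 ± 9.91 CPM with DDAC and 88.3 ± 32.7 CPM with ADEB18 (log2 fold change 1.11 ± 0.24, adjusted p = 0.0156), and 1 of 18 lysosome genes was called. Herpud1, a component of the degradation pathway of the endoplasmic reticulum, had 0.44 ± 0.09 (adjusted p = 0.0147), and 1 of 18 genes of its list was called. Eif2s3y, a translation factor gene of the Y chromosome, had 0.88 ± 0.21 (adjusted p = 0.0250), while Kdm5d and Uty, also on the Y chromosome, had -0.16 ± 0.19 and 0.14 ± 0.21. Of the 8 fits with a library left out, Herpud1 kept its call in 6, Ctsl in 5, Per2 in 4, Zfp36 in 3, and Hopx and Eif2s3y in 2, and none of these 6 genes kept it without ADEB18 replicate 3. With the 2 groups alone Herpud1 and Zfp36 were not called (adjusted p = 0.0780 and 0.0587 in edgeR).

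Of all genes tested, 48.1% had a log2 fold change above 0. Among the lists without a call, 13 of 17 recruited macrophage genes were above 0 with a median log2 fold change of 0.30, and 12 of 14 collagen genes were above 0 with a median of 0.19. Of 16 DNA replication genes 13 were above 0 (median 0.20), and of 15 Nrf2 and antioxidant genes 10 were (median 0.31). Of 14 ciliated cell genes 2 were above 0 (median -0.47), and of 7 goblet and mucous genes 0 were (median -1.06). Of 12 neutrophil markers 3 were above 0 (median -0.50), and of 14 immediate early genes 3 were (median -0.31). At 0.125 the median had the opposite sign for recruited macrophage (-0.19), collagen (-0.14), DNA replication (-0.30) and immediate early genes (0.07). It kept its sign for Nrf2 and antioxidant (0.19), ciliated cell (-0.16), goblet and mucous (-1.14) and neutrophil genes (-0.04). No gene of the neutrophil, chemokine, macrophage, lymphocyte, alveolar type 2, endothelial, collagen, DNA replication, mitosis or cholesterol lists was called in edgeR at 0.25 with all libraries in the fit. Other settings called some. DESeq2 called Csf1 (adjusted p = 0.0305), Arg1 (0.0447), Pcna (0.0313) and Idi1 (0.0357), and edgeR called Csf1 with the replicate block (0.0498), Col12a1 with the 2 groups alone (0.0377) and Arg1 with the heart muscle covariate (0.0332). Of the 12 tested neutrophil markers 0 were called, and of the 17 tested recruited macrophage genes 0 were called. Ccl2, a chemokine that attracts monocytes, had 6.24, 43.7, 18.5 and 9.58 CPM in DDAC libraries, against 9.86, 17.9, 3.20 and 11.9 CPM in ADEB18 libraries. The groups overlapped, and the log2 fold change was 0.87 with an interval of -0.13 to 1.87 (adjusted p = 0.461). Saa3, an acute phase gene, had 3.60, 26.2, 26.8 and 6.49 CPM in DDAC libraries and 7.46, 8.96, 3.20 and 4.40 CPM in ADEB18 libraries (log2 fold change 1.4, interval -0.10 to 2.90). Sftpc, the surfactant protein C gene, differed by 0.26 with an interval of -0.02 to 0.54 (adjusted p = 0.419). Pecam1, an endothelial junction gene, differed by 0.37 with an interval of 0.00 to 0.73 (adjusted p = 0.356). These intervals leave room for differences in either compound's direction in Ccl2, Saa3 and Sftpc.

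Markers of heart muscle and fat differed between libraries, and where in the samples these transcripts came from was not tested. The 15 cardiac muscle genes summed to 133, 210, 142 and 128 CPM in DDAC libraries, and to 1250, 164, 1577 and 195 CPM in ADEB18 libraries. All 15 had a log2 fold change below 0 and 0 were called. Myl2 and Nppa were at 0 in all 4 DDAC libraries. The 8 adipocyte genes summed to 26.1 to 54.0 CPM in DDAC libraries and 34.9 to 94.4 CPM in ADEB18 libraries, with Lep, Plin1 and Retn at 0 in all 4 DDAC libraries, and their part in the results was not tested. With the heart muscle score as a covariate, a fit added after the values were seen, 254 genes were called and Zbtb16 had a log2 fold change of 3.49.

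A group of genes that vary together between libraries of one treatment held many of the genes called higher. It was built without DDAC or ADEB18 libraries, as the 425 genes (2.39% of those tested) whose deviations from the group mean correlated above 0.7 with those of Rpl32 over 28 Control, ABD and BKC libraries. The group held 73 of the 166 genes higher with DDAC (43.98%) and 0 of the 67 lower ones, and 8 of the 12 named by size. Rpl32 was itself chosen from the genes called higher and its counts are uncertain; without it the group held 72 of the called genes and 7 of the other 11 named by size. Its members include Rpl32, Rpl35a, Eef1a1, Atn1, Etfa, Postn, Klf10, Tgfbr2, Hopx and Ctsl, while Zbtb16, Id1, Ostf1 and Per2 lie outside it. Of the 425 genes, 417 had a log2 fold change above 0, with a median of 0.71, beside -0.02 over all genes. Of 86 cytosolic ribosomal protein genes tested, 13 were in the group, and the median of the 86 was 0.17. Of the 86, 4 were called higher and 0 lower, beside 0.933% and 0.376% of all genes tested.

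The level of the group, its mean log2 CPM, was 5.42, 5.55, 5.47 and 5.23 in DDAC libraries and 4.55, 4.14, 4.17 and 5.12 in ADEB18 libraries. ADEB18 replicate 4 stood near the DDAC libraries, and leaving it out gave 582 calls. Control libraries lay between 4.48 and 4.70, and the 4 ADEB18 libraries at 0.5 between 5.15 and 5.41. Within a single treatment, ABD at 0.25, the level ran from 3.79 to 5.46. The ABD 0.25 libraries were among those used to choose the genes, so a wide spread there follows in part from the choice. With DDAC at 0.0625 it already lay between 5.17 and 5.28. With this level as a covariate, a fit added after the values were seen, Zbtb16 alone was called, 0.00562% of those tested (log2 fold change 3.73, adjusted p = 9.87e-05), and 1059 genes had an unadjusted p under 0.05. The groups do not overlap in this level, so the level and the compound cannot be told apart in these 8 libraries. Whether it is an effect of the compounds or of the tissue sample was not tested.

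**Figure D4:**
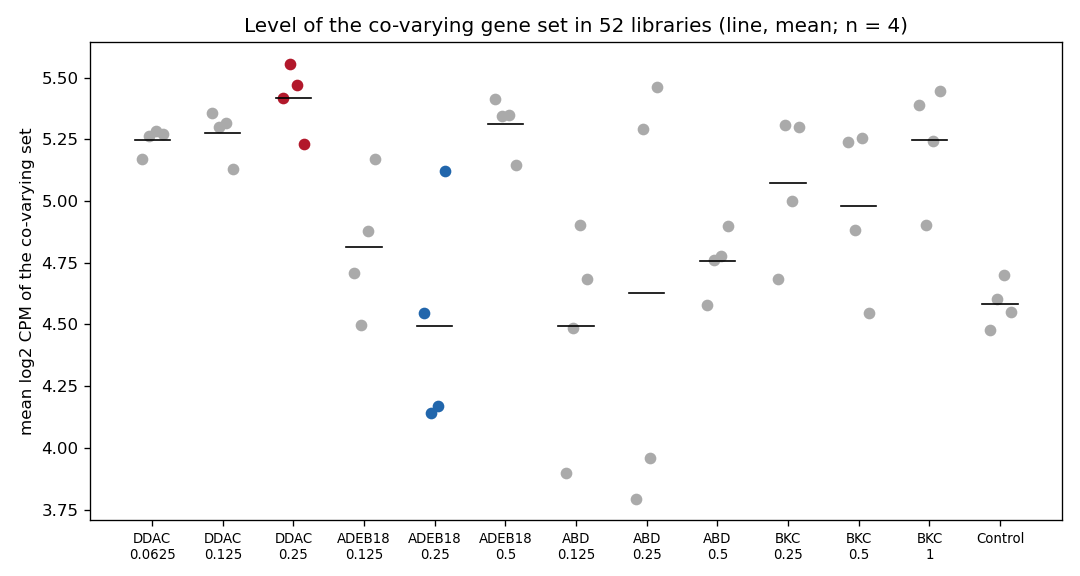
Mean log2 CPM of the 425 co-varying genes (y axis) in each of the 52 libraries by group (x axis), with the group mean as a line. DDAC 0.25 libraries lie between 5.23 and 5.55, 3 of the 4 ADEB18 0.25 libraries between 4.14 and 4.55, and the last at 5.12.

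Control levels lay nearer to one compound than to the other. For 152 of the 166 genes higher with DDAC, and for 55 of the 67 lower, the Control mean was nearer to the ADEB18 mean than to the DDAC mean. Of all genes tested, called or not, this held for 59.8% of those with a log2 fold change above 0 and 59.4% of those below 0. The co-varying group holds 73 of the 166 higher genes, so these are not separate measures. Its mean level was 4.58 in Control, 4.49 with ADEB18 and 5.42 with DDAC at 0.25. Igfbp5 averaged 13.9 ± 2.04 CPM with DDAC, 41.7 ± 9.66 CPM with ADEB18 and 40.8 ± 21.7 CPM in Control (SD, n = 4 each). Id1 averaged 435 ± 40.4 CPM with DDAC, 187 ± 69.8 CPM with ADEB18 and 217 ± 13.8 CPM in Control. Zbtb16 differed from these genes. Against Control its log2 fold change was 0.91 with DDAC (adjusted p = 0.254) and -2.65 with ADEB18 (adjusted p = 0.00295). Both of these comparisons share the Control libraries. The mean of Zbtb16 with DDAC at 0.0625 was also below every Control library, so a level below Control was not particular to ADEB18.

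At 0.125, the other dose value the compounds share, 187 genes were called between DDAC and ADEB18 (1.05% of those tested), 84 higher with DDAC (0.472%) and 103 lower (0.579%). The comparison shares no library with that at 0.25. Of the 233 genes called at 0.25, 213 (91.4%) had the same sign at 0.125, beside 60.2% of all genes. They were 160 of the 166 higher and 53 of the 67 lower genes. The co-varying group holds 73 of the 166 higher genes, so these are not separate measures. Its mean level at 0.125 was 5.28 with DDAC and 4.81 with ADEB18. The median log2 fold change at 0.125 was 0.49 over the genes higher at 0.25 and -0.15 over those lower, and 0.37 over the co-varying group. Genes called at both dose values numbered 12, all with the same sign at both: Adcy3, Atg3, Clk1, Gnb2, Ostf1, Pard6b, Pi4ka, Postn, Rps27 and Zfp36 were higher with DDAC, and Gnl3l and Tpm3 lower. Among them, Zfp36 had 1.58 ± 0.40 at 0.25 and 1.71 ± 0.40 at 0.125, Pard6b, a cell polarity gene, 1.29 ± 0.30 and 1.21 ± 0.30, and Gnl3l, a nucleolar GTPase gene, -1.002 ± 0.22 and -1.09 ± 0.22. The calls at 0.125 rested on single libraries. Of the 12, 0 kept their call at 0.125 without DDAC replicate 1 or DDAC replicate 3 of that dose, 1 without ADEB18 replicate 2 or ADEB18 replicate 3, and 3 without ADEB18 replicate 1. The other left-out libraries, DDAC replicate 2, DDAC replicate 4 and ADEB18 replicate 4, left 8, 9 and 11 of the 12. In the fit of the 2 groups alone, and with the heart muscle covariate, 0 kept it.

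**Figure D5:**
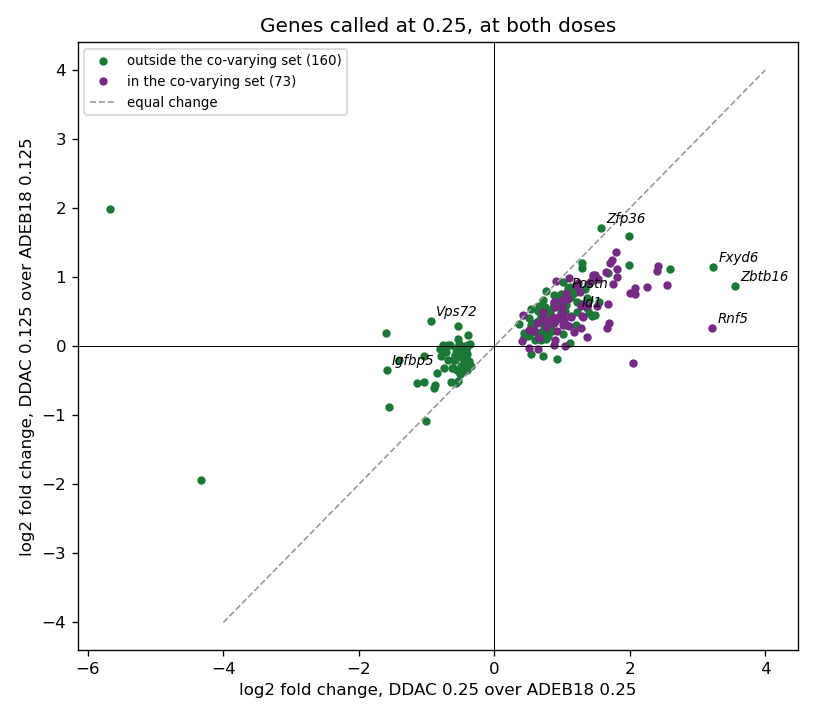
Log2 fold change of DDAC over ADEB18 at 0.25 (x axis) and at 0.125 (y axis) for the 233 genes called at 0.25, in purple for the co-varying group and green for the others, with the dashed line marking equal change. Most points share a sign, 213 of 233, and Zbtb16, Fxyd6 and Rnf5 lie far below the line.

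Other genes were called at 0.125 and not at 0.25. The mitosis list had 3 of 19 genes lower at 0.125, beside 0.579% of all genes tested. These 3, Top2a, Plk1 and Ube2c, had log2 fold changes of -1.14 ± 0.26, -1.35 ± 0.32 and -1.27 ± 0.30. At 0.25 the same 3 genes had -0.12 ± 0.26, -0.10 ± 0.31 and 0.07 ± 0.30, and 0 of the 19 were called. Without one 0.125 library at a time, Top2a, Plk1 and Ube2c kept their calls at 0.125 in 4, 2 and 3 of 8 fits, Saa3 in 1 and Gzmb in 2, and none of the 5 was called with the 2 groups alone or with the heart muscle covariate. Saa3 was lower with DDAC at 0.125, with a log2 fold change of -3.03 ± 0.81 (adjusted p = 0.0471 in edgeR). There it had 2.91, 3.74, 1.38 and 2.77 CPM in DDAC libraries, against 7.67, 70.6, 4.06 and 5.38 CPM in ADEB18 libraries, where replicate 2 stood far above the rest. Gzmb, a cytotoxic granule protease gene, was higher with DDAC at 0.125, with a log2 fold change of 1.91 ± 0.47. The differences between the doses were not called for Top2a, Plk1, Ube2c, Saa3 or Gzmb (adjusted p 0.245 to 0.567).

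The change of the difference between 0.25 and 0.125 was called for 1 gene (0.00562% of those tested), Dcaf17, whose product is a substrate receptor of a ubiquitin ligase (log2 value -1.07 ± 0.19, adjusted p = 0.0120). It had 21.7, 21.5, 23.7 and 20.2 CPM with DDAC at 0.25, against 28.1, 25.6, 30.5 and 32.1 CPM with ADEB18 at 0.25. At 0.125 it had 29.1, 26.2, 31.7 and 27 CPM with DDAC, against 17.5, 21.6, 17.3 and 16.1 CPM with ADEB18. The groups did not overlap at either dose, and their order was opposite. The difference was called at 0.125 (adjusted p = 0.0140) and not at 0.25 (adjusted p = 0.0873). The call of the change was lost without DDAC 0.25 replicate 4, DDAC 0.125 replicate 3 or ADEB18 0.125 replicate 1 (adjusted p 0.0651 to 0.0679), with the 4 groups alone (0.296) and without the low-count filter (0.107). DESeq2's test called 19 genes for this change, and 1331 genes had an unadjusted p under 0.05 in edgeR.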

How the data were processed

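The authors deposited whole-number counts per gene symbol for each of 52 libraries. The submitters' processing notes list fastp, STAR and HTSeq as tools and mRatBN7.2 as the build, with no versions. The strand setting is not given in the sources used here, so overlapping, antisense and near-identical genes cannot be separated. Of 34034 symbols, 29609 were found in RefSeq's GRCr8 table.

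edgeR 4.0.16 (R 4.3.3, limma 3.58.1) was run with TMM scaling, a filterByExpr filter and the quasi-likelihood test on 13 groups of 4, with 39 residual degrees of freedom. SE is the log2 fold change over the root of F. DESeq2 1.42.0 was an alternative. On simulated counts for DDAC against ADEB18 at 0.25, the test found 38.1% of the genes given a 2-fold change and 77% at 4-fold, and made 8 false calls among 17472 genes. Each gene was simulated independently, with no co-varying group and no heart muscle differences between libraries. The false calls of the simulation are therefore no measure of those in these data.

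Named genes were the 12 largest called changes in each direction with groups apart and 5 CPM or more on average in either group, 3 in each direction at 0.125, and up to 4 members of a list, by adjusted p. LOC, RGD and like names were skipped. Others are marked as picked after values were seen. The comparison, genes and 43 lists were chosen with earlier results of these data known. Residuals of same-numbered libraries in the 2 groups correlated between -0.11 and 0.03, which gave no sign of pairing by number. Whether equal numbers share a cage, batch or day is not given in the sources used here and was not tested. No 2 libraries were identical.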

Additional observations from a re-analysis of the deposited data

Results flagged for a closer look

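Dcaf17 stood out because its difference between compounds changed between doses. The log2 difference at 0.25 minus that at 0.125 was -1.07 ± 0.19 (adjusted p = 0.0120 in edgeR), with DDAC lower in 4 of 4 libraries at 0.25 and higher in 4 of 4 at 0.125. The difference at 0.25 was itself not called (adjusted p = 0.0873). For Dcaf17 the adjusted p ranged from 0.00444 to 0.0679 with one library left out, where 3 of 16 fits lost the call, and was 0.296 with the 4 groups alone and 0.107 without the low-count filter.

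Single libraries lay far from the other 3 of their group, by Dixon's ratio above 0.829, in 6 of 104 sets of 4 values checked, where chance alone flags about 1 in 20. ADEB18 replicate 4 was high in Rnf5 (13.9 CPM) and Eef1a1 (35.7 CPM). ADEB18 replicate 2 was low in Rbm22 (18 CPM) and had the lowest total count of its group, 9598894. ADEB18 replicate 1 was high in Herpud1 (214 CPM). DDAC replicate 2 was high in the summed cardiac muscle genes (210 CPM).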

How the results depend on the processing

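Calls at 0.25 numbered 544 with DESeq2, 96 with the 2 groups alone in the fit, 621 by the series' rule (2-fold and unadjusted p under 0.05), 98 when 2-fold was added to the adjusted p, 1 with the level of the co-varying group as a covariate, and 4 to 582 with one library left out. Calls at 0.125 numbered 476, 0, 599, 42 and 32 under the same settings, 10 with the heart muscle score as a covariate, and 3 to 545 with one library left out. At 0.125 with the 2 groups alone 2154 genes had an unadjusted p under 0.05. The change with dose was called for 19 genes with DESeq2, 464 by the series' rule, 0 without the low-count filter (1946 at unadjusted p under 0.05), 0 with the 4 groups alone (1231), and 0 to 2 with one library left out. List genes called at 0.25 numbered 20 with DESeq2, 38 by the series' rule, 1 with the covariate of the co-varying group, and 2 to 20 with one library left out. With the replicate block, for which the residuals gave no sign of pairing, calls numbered 299 at 0.25, 209 at 0.125, 1 for the change and 10 in the lists. Over all settings, 1014 log2 values were set against those of the main fit, and 330 lost their call and 0 turned sign. Their genes were named by size, by smallest adjusted p, as called list members, or by size at 0.125 or in the change with dose. All had been called in the main fit. By the series' rule, and with 2-fold added to the adjusted p, the value was the main fit's own and could not turn. The other settings refitted the same libraries of the compared groups, all or without 1, so the 0 says little about sign. Values at 0.25 that were not called could turn sign: with one library left out Uty ranged from -0.02 to 0.33 and Gzmb from -0.01 to 0.52. Both covariates were chosen after seeing the data. The causes of these shifts were not tested. In simulated counts of this design, with genes drawn independently, 38.1% of 2-fold changes were found. Other depths and group sizes, and genes that vary together, were not tried.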
